A study of Mus musculus with 10 samples.

Results

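Premalignant lung cells that carry the N211A allele of Apex1 beside a flox allele (flox/N211A) were set against cells that carry a wild-type allele beside a flox allele (flox/+). All genes of the deposited count table were compared over the 3 flox/N211A and 4 flox/+ libraries, 7 of the 10 libraries of the series. Of 25277 genes in the table, 13144 had enough counts to be tested in these 7 libraries. The 3 flox/flox libraries were left out of the comparison and are quoted only where they are named. Every mouse had been given an adenovirus that carries the Cre recombinase 12 weeks before, in both genotypes, so both genotypes share the virus and 1 flox allele that Cre can remove. Each library was made from about 500 cells by a modified SMART-Seq2 protocol, a full-length cDNA method with PCR amplification. The labels give the tissue as lung and name no age, strain, sex or further allele, and they do not say how the cells were isolated, how far Cre had removed the flox allele or whether replicates came from separate animals. The p-values below therefore measure the spread between these samples, which may in part be technical.

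APE1, the protein of Apex1, is the main apurinic/apyrimidinic endonuclease of base excision repair: it cuts the DNA backbone at sites that have lost a base, after which a polymerase and a ligase restore the strand. It also acts as a redox factor on several transcription factors. The title of the series links it to G-quadruplexes, four-stranded folds of guanine-rich DNA that often lie in promoters, and to urea cycle genes, whose enzymes turn ammonia into urea through arginine. The comparison asks how the transcriptome differs when the second allele is N211A in place of the wild type. N211A names a change from asparagine to alanine at the codon with that number. The codon is shown here in the reference sequence with its surroundings because the 2 genotypes differ there by design. It lies in exon 5 of 5 of the transcript Apex1-201, which has 317 codons, on the plus strand of chromosome 14 at chr14:50926650-50926652 (GRCm38, GENCODE M21), with the codon in capitals within 30 bases of coding sequence, 5′ to 3′.
Apex1, codon of N211A: tatgtggggatctcAATgtggctcatgaag
The deposited table holds counts per gene, so neither the allele that a transcript came from nor the sequence change itself could be read.

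Apex1 (chromosome 14, 50924968 to 50927139) was read first in every library. Its level was 8.01, 13.4 and 6.64 CPM (read counts scaled to library totals that were adjusted by trimmed means) in replicates 1 to 3 of flox/N211A, against 4.40, 16.5, 36.0 and 56.3 CPM in flox/+ replicates 1 to 4. Flox/+ replicate 1 lay below every flox/N211A library and flox/+ replicates 3 and 4 lay above them all, so the genotypes overlapped. The log2 fold change was -1.59 (SE 0.87, edgeR quasi-likelihood test with Benjamini-Hochberg adjustment, adjusted p = 1.00), and it was -0.13 when flox/+ replicates 3 and 4 were left out together. A point mutant is still transcribed, so this level checks neither label.

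The libraries held 8955368 to 17070817 counts in flox/N211A and 13221853 to 17707731 in flox/+. Of the tested genes, 2.14% to 9.21% had no count in a flox/N211A library, against 2.02% to 15.2% in a flox/+ library. The 12 rank correlations between libraries of different genotypes had a median of 0.778, against 0.827 for the 3 pairs within flox/N211A and 0.751 for the 6 pairs within flox/+. Flox/+ replicate 3 stood alone on the first principal component, at 238 where the other 6 libraries ran from -55.8 to -3.08. The airway secretoglobin Scgb1a1 took 13.4% to 23.5% of the counts in flox/N211A and 2.55% to 16.7% in flox/+, and the surfactant gene Sftpc took 3.61% to 4.21% and 3.67% to 13.1%, so transcripts of club and alveolar type II cells were present in all 7. Xist, the transcript of the inactive X chromosome, exceeded the Y-linked genes in all 3 flox/N211A libraries and in flox/+ replicates 1 and 3, while flox/+ replicates 2 and 4 showed the opposite, so sex was not balanced.

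**Figure D1:**
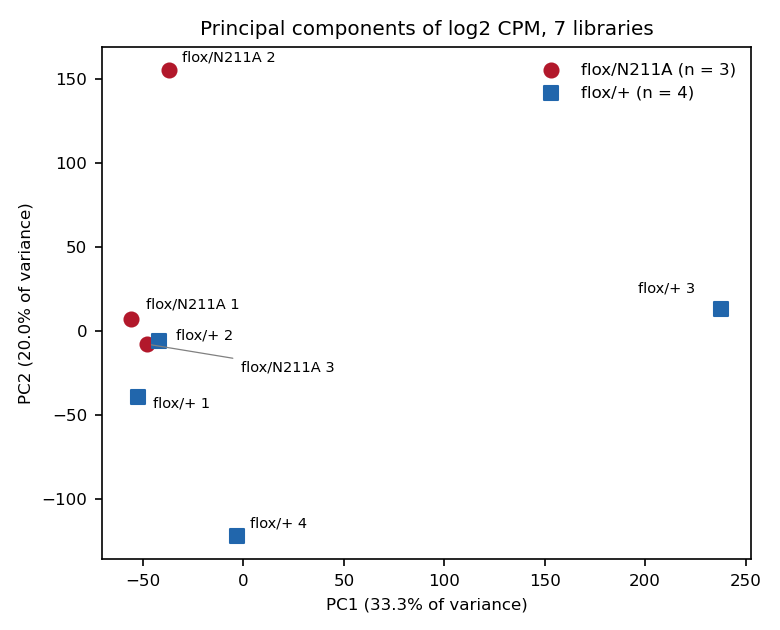
First and second principal components of log2 CPM over the tested genes, 1 point per library, circles for flox/N211A and squares for flox/+. Flox/+ replicate 3 lies apart on the first axis (33.3% of the variance), flox/N211A replicate 2 and flox/+ replicate 4 lie at opposite ends of the second (20.04%), and flox/N211A replicates 1 and 3 lie beside flox/+ replicates 1 and 2.

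No single gene passed the test. At an adjusted p under 0.05, edgeR called 0 of 13144 genes (0%), and the lowest adjusted p was 0.740. At an unadjusted p under 0.05 there were 497 genes (3.78%), of which 148 were higher (1.13%) and 349 lower (2.66%) in flox/N211A. Libraries did not overlap between the genotypes in 813 genes (6.19%), with 435 higher (3.31%) and 378 lower (2.88%). The median log2 fold change of all genes was -0.06. Limma voom called 0 genes and had 593 at an unadjusted p under 0.05, while DESeq2 called 13, of which 5 were higher and 8 lower, among them Gsn, Col1a2, Pik3ap1, Stmn1, Pgk1 and Tert of the genes described here. EdgeR with no low-count filter called 33, among them Serpinb1a, Gsn, Cyp2a5, Pik3ap1, Bcr, Eno1 and Oaz1. The count at an unadjusted p under 0.05 fell to 274 without flox/N211A replicate 1 and to 290 without flox/+ replicate 4, and it was 791 without flox/+ replicate 2. The biological coefficient of variation was 0.990, a spread between replicates close to the size of the mean. Every gene and list named below is therefore given by its values, and none of the differences passed the adjusted edgeR test over the 13144 genes.

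Those higher in flox/N211A with the smallest p encode secreted and matrix proteins, signalling proteins and a club cell cytochrome. Serpinb1a, an inhibitor of neutrophil proteases, had 9.49, 6.75 and 134 CPM in replicates 1 to 3 of flox/N211A, against 0 counts in all 4 flox/+ libraries. With a floor of 3 counts per flox/+ library it was at least 255.5-fold higher in flox/N211A, a bound that became 41.5-fold when flox/N211A replicate 3 was left out (edgeR adjusted p = 0.740). Such bounds cover counting error only. Gsn, which encodes the actin-severing protein gelsolin, had 481, 527 and 173 CPM in flox/N211A, against 135, 79.0, 81.9 and 51.7 CPM in flox/+ (log2 fold change 2.18, SE 0.45). Its lowest flox/N211A library, replicate 3, lay close to the highest flox/+ library.
Efemp1, which encodes the matrix protein fibulin-3, had 98.8, 68.1 and 57.4 CPM in flox/N211A, against 10.9, 28.5, 16.5 and 17 CPM in flox/+ (log2 fold change 2.04, SE 0.49), with a clear gap between the genotypes. Col1a2, a chain of type I collagen, had 19.1, 9.69 and 2.45 CPM in flox/N211A, against 0.0800 CPM in flox/+ replicate 1 and 0 counts in the other 3 flox/+ libraries. Fbn1, which encodes fibrillin-1 of the elastic matrix, had 17, 16.5 and 1.37 CPM in flox/N211A, against 0, 0.0565, 0 and 0.520 CPM in flox/+. Both of these genes, and Serpinb1a, met the filter on low counts only through flox/N211A.

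Cyp2a5, a cytochrome P450 of club cells that oxidises foreign compounds, had 245, 159.8 and 179 CPM in flox/N211A, against 9.19, 74.8, 49.6 and 21.4 CPM in flox/+ (log2 fold change 2.33, SE 0.58). Every flox/N211A library exceeded the highest flox/+ library by more than the spread within flox/+. Hs6st2, an enzyme that adds sulfate to heparan sulfate chains, had 46.2, 81.8 and 48.1 CPM in flox/N211A, against 13.8, 18.4, 15.1 and 16.5 CPM in flox/+ (log2 fold change 1.88, SE 0.48). The flox/+ libraries were close to each other for this gene. Pik3ap1, an adaptor of phosphoinositide 3-kinase, had 35.3, 26.6 and 8.88 CPM in flox/N211A, against 0.959, 0, 0.266 and 0 CPM in flox/+. Only through flox/N211A did Pik3ap1 meet the filter on low counts. Vegfd, a growth factor for lymphatic vessels, had 12.6, 68.2 and 12.1 CPM in flox/N211A, against 4.88, 7.17, 3.52 and 3.29 CPM in flox/+, and flox/N211A replicate 2 carried its mean. The hydrolase gene Fhit, which spans a fragile site, had 53, 60.3 and 23.3 CPM in flox/N211A, against 14.3, 12.2, 16.3 and 10.3 CPM in flox/+. The kinase gene Stk33 had 93.1, 96.1 and 78.4 CPM in flox/N211A, against 20.7, 46.6, 39.1 and 9.01 CPM in flox/+. Both had non-overlapping libraries, by which these genes were chosen.

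**Figure D2:**
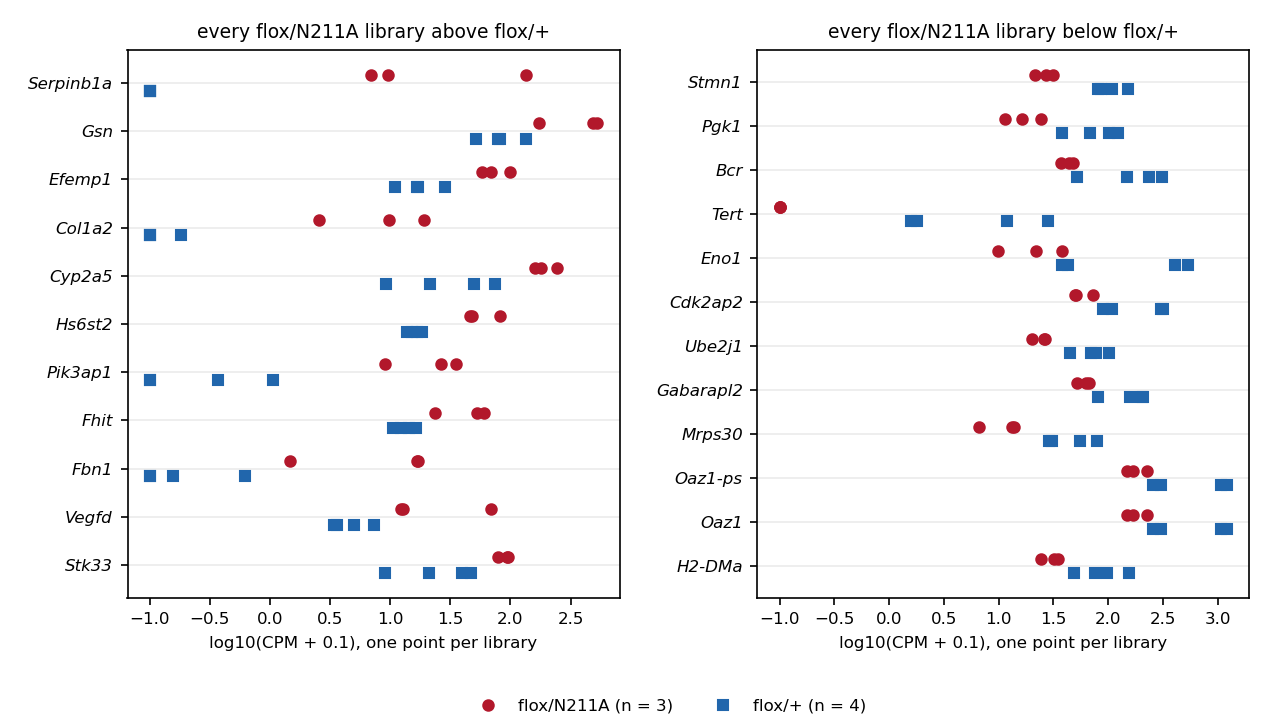
Level of the genes with the smallest p in each direction among those with non-overlapping libraries, as log10 of CPM plus 0.1, 1 point per library, circles for flox/N211A and squares for flox/+. Serpinb1a has 0 counts in all flox/+ libraries and Tert in all flox/N211A libraries (points at the left edge), and Eno1, Cdk2ap2 and Oaz1 have flox/+ replicates 3 and 4 far from flox/+ replicates 1 and 2.

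Among the genes lower in flox/N211A, those with the smallest p act in the cytoskeleton, glycolysis, telomere upkeep, protein turnover and polyamine control. Stmn1, which encodes the microtubule-destabilising protein stathmin, had 26.7, 21.6 and 31.2 CPM in flox/N211A, against 80.2, 85.1, 153 and 109 CPM in flox/+ (log2 fold change -2.01, SE 0.42, edgeR adjusted p = 1.00). Its lowest flox/+ library lay well above its highest flox/N211A library. Pgk1, the glycolytic phosphoglycerate kinase, had 11.2, 24.4 and 16.4 CPM in flox/N211A, against 68.7, 102, 37.9 and 123 CPM in flox/+ (log2 fold change -2.26, SE 0.53). Tert, the catalytic subunit of telomerase, had 0 counts in all 3 flox/N211A libraries and 28.4, 1.47, 11.7 and 1.67 CPM in flox/+. It was at least 47.6-fold lower in flox/N211A, a bound that became 21.8-fold when flox/+ replicate 1 was left out. It was the 1 gene with no count in any flox/N211A library and at least 1 CPM in every flox/+ library. Tert met the filter on low counts only through flox/+.
Ube2j1, a ubiquitin-conjugating enzyme of the endoplasmic reticulum, had 26.2, 20.1 and 25.8 CPM in flox/N211A, against 70.2, 78.1, 102 and 44.9 CPM in flox/+ (log2 fold change -1.62, SE 0.45). Mrps30, a protein of the mitochondrial ribosome, had 13.6, 6.5 and 13.1 CPM in flox/N211A, against 78.2, 28.6, 55.4 and 30.7 CPM in flox/+ (log2 fold change -2.12, SE 0.61). In both genes all 4 flox/+ libraries stood apart from flox/N211A.

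The other lower genes drew much of their difference from flox/+ replicates 3 and 4. Eno1, the glycolytic enolase, had 9.67, 37.6 and 21.7 CPM in flox/N211A, against 38.0, 42.9, 536 and 405 CPM in flox/+ (log2 fold change -3.47, SE 0.94), so flox/+ replicates 1 and 2 lay beside flox/N211A replicate 2. Its near-identical copy Eno1b had 2.12, 10.7 and 2.24 CPM in flox/N211A, against 4.56, 0.960, 16 and 73.4 CPM in flox/+, and reads of the 2 copies may have been split. Oaz1, the antizyme that marks ornithine decarboxylase for degradation, had 149, 168 and 226 CPM in flox/N211A, against 254, 302, 1081 and 1221 CPM in flox/+ (log2 fold change -1.98, SE 0.57). The pseudogene Oaz1-ps had the same counts as Oaz1 in 3 of the 7 libraries and nearly the same in the others, so these 2 entries cannot be told apart and stand for 1 signal. Cdk2ap2, a partner of a cell cycle kinase, had 50.6, 49.8 and 72.4 CPM in flox/N211A, against 108, 90.2, 306 and 317 CPM in flox/+. Bcr, a regulator of small GTPases, had 37.3, 48.1 and 43.9 CPM in flox/N211A, against 147, 52.3, 313 and 234 CPM in flox/+, with flox/+ replicate 2 next to the flox/N211A libraries. Gabarapl2, a membrane protein of autophagy, had 66.4, 51.8 and 62.8 CPM in flox/N211A, against 81.2, 158, 205 and 207 CPM in flox/+. H2-DMa, which helps load peptides on MHC class II, had 34.7, 24.2 and 32 CPM in flox/N211A, against 48.6, 76.0, 96.7 and 155 CPM in flox/+.

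Over all 349 lower genes, flox/+ replicates 3 and 4 were the highest 2 flox/+ libraries for 216 (61.9%). That order held for 6 of the 148 higher genes (4.05%) and for 2141 of all 13144 genes (16.3%). With these 2 libraries left out together, a choice made after the data were seen, 435 genes had an unadjusted p under 0.05 in edgeR, of which 283 were higher and 152 lower, and 0 passed the adjusted test. Scaling by plain totals gave 183 higher and 239 lower genes at that threshold over all 7 libraries. With the class read from Xist and the Y-linked genes as a term, there were 546 higher and 261 lower, so the balance of directions depended on these choices.

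The same genes were read in the flox/flox libraries, which belong to neither group of this contrast, with all 10 libraries scaled together. Serpinb1a had 0, 0 and 0.0249 CPM in flox/flox replicates 1 to 3, and Tert had 0, 0 and 0.0996 CPM there. Several genes that were higher in flox/N211A than in flox/+ were also high in flox/flox. Stk33 had 167, 148 and 135 CPM in flox/flox, above its 3 flox/N211A libraries, Cyp2a5 had 349, 137 and 238 CPM, and Fhit had 84.6, 30.0 and 47.2 CPM. Gsn had 1299, 35.4 and 1563 CPM in flox/flox. Others were not: Col1a2 and Fbn1 reached at most 0.188 and 0.598 CPM there. Efemp1, with 107, 0 and 7.17 CPM, Hs6st2, with 190, 8.06 and 8.74 CPM, and Pik3ap1, with 21.9, 0 and 0.0498 CPM, were high in flox/flox replicate 1 only. Stmn1 had 23.8, 99.97 and 69.1 CPM in flox/flox and Pgk1 had 25.4, 146 and 122 CPM. Ube2j1 had 18.8, 4.68 and 37.4 CPM in flox/flox, below all 4 flox/+ libraries, and Mrps30 had 0, 0 and 35.5 CPM. Eno1 had 15.1, 467 and 409 CPM in flox/flox, so replicate 1 stood near the flox/N211A level and replicates 2 and 3 near flox/+ replicates 3 and 4. In flox/N211A against flox/flox, edgeR over all 10 libraries called 0 of 13464 genes at an adjusted p under 0.05 and had 1622 at an unadjusted p under 0.05. The lowest adjusted p was 0.178, and that of Serpinb1a was 0.319.

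Gene lists were described by the number of tested members on either side of 0, by the median edgeR log2 fold change, beside -0.06 for all genes, of which 46.9% lay above 0, and by the summed CPM of the list in each library. In bulk samples, fewer cells of a type and less RNA of that type per cell cannot be told apart. Lists were not tested, and the number of list members called at an adjusted p under 0.05 was 0 throughout.

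**Figure D3:**
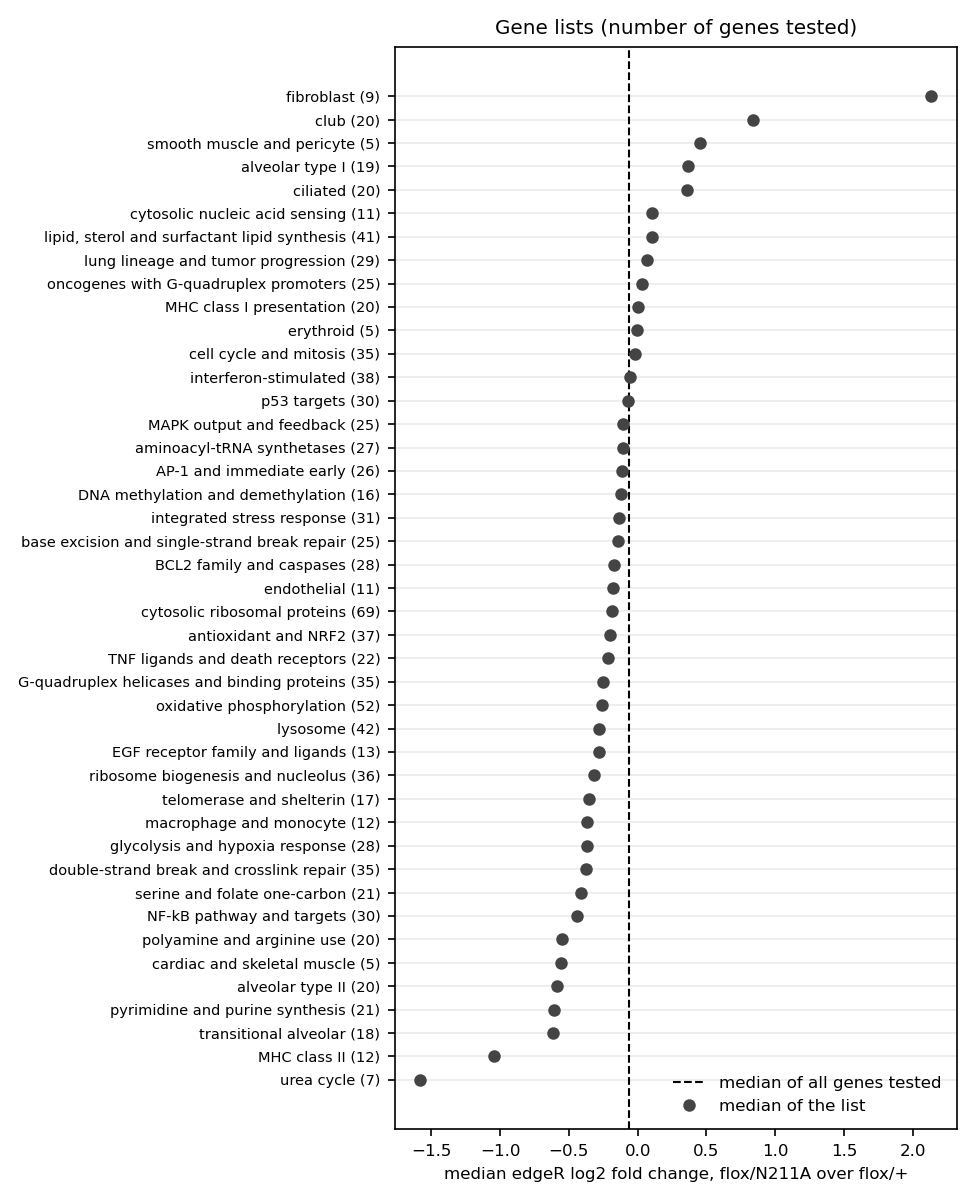
Median edgeR log2 fold change of flox/N211A over flox/+ for the gene lists with at least 5 tested members, with the number tested in brackets and a dashed line at the median of all genes. The fibroblast list, with 9 of 22 members tested, and the club list, at 0.84, lie farthest to the right, and the MHC class II and urea cycle lists farthest to the left at -1.04 and -1.58.

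Club cell markers lay above the median of all genes, and markers of alveolar type II and transitional cells below it. Of 20 club cell genes, 16 lay above 0, with a median of 0.84, which was 0.30 without flox/N211A replicate 3. Of them 6 had non-overlapping libraries, all higher in flox/N211A, as did 3.31% of all genes. Besides Cyp2a5 these included Ces1d, a carboxylesterase with 651, 599.9 and 386 CPM in flox/N211A, against 182, 377, 293 and 165 CPM in flox/+. The abundant Cbr2 was 1 of the 4 members below 0, with 1923, 3557 and 3963 CPM in flox/N211A, against 1475, 3911, 9104 and 4229 CPM in flox/+. The club secretoglobin Scgb3a2 had 3897, 5821 and 5926 CPM in flox/N211A, against 3478, 3025, 638 and 282 CPM in flox/+, where replicates 1 and 2 lay near flox/N211A replicate 1 and replicates 3 and 4 far below. Of 20 ciliated cell genes 13 lay above 0, and the median of 0.36 was 0.06 without flox/+ replicate 1, 0.18 without flox/+ replicate 4, 0.24 without flox/N211A replicate 1 and 0.03 with the Xist class as a term. Foxj1, the transcription factor of motile cilia, had 63.7, 29.6 and 52.0 CPM in flox/N211A, against 33.3, 16.6, 22.3 and 7.16 CPM in flox/+. The more abundant Tppp3, 1 of the 7 members below 0, had 437, 503 and 549 CPM in flox/N211A, against 245, 452, 2285 and 977 CPM in flox/+.
Of 22 fibroblast genes, 9 passed the filter on low counts, some of them only through flox/N211A, so their median is shown as a description only. Of the untested members, Pdgfra, a growth factor receptor of fibroblasts, had 9.67, 69.9 and 0 CPM in flox/N211A, against 0.0800, 0, 0 and 0 CPM in flox/+, and elastin Eln had 66.0, 3.94 and 0 CPM in flox/N211A, against 0, 0.282, 0 and 0 CPM in flox/+. The summed level of the fibroblast list was 875, 1001 and 246 CPM in flox/N211A, against 376, 139, 223 and 188 CPM in flox/+. Flox/N211A replicate 3 therefore lay within the flox/+ range, and the defining marker Lum was at 0 in all 7 libraries. Gsn and Col1a2, chosen above by their values, are members of the list. Gsn by itself gave 481, 527 and 173 CPM of the sums in flox/N211A, against 135, 79.0, 81.9 and 51.7 CPM in flox/+. The sum is therefore in large part the Gsn level again. The part of fibroblast RNA in the higher levels of Gsn, Col1a2 and Fbn1 was not tested.

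Alveolar type II genes lay below 0 for 18 of 20 members, with a median of -0.59, and of -0.35 without flox/+ replicates 3 and 4. The lysozyme gene Lyz2 had 3529.6, 4242 and 5868 CPM in flox/N211A, against 11032, 6065, 21769 and 9429 CPM in flox/+. It was the 1 member whose libraries did not overlap, where 2.88% of all genes were lower without overlap. All 18 genes of the transitional alveolar state, which cells pass through on leaving the type II state, lay below 0, with a median of -0.62, and of -0.41 without those 2 libraries. Their sum was lower in every flox/N211A library, at 5015, 8883 and 8157 CPM, against 11336, 10714, 15050.1 and 16114 CPM in flox/+. Ctsh, a lysosomal protease of type II cells, had 359.6, 366 and 418 CPM in flox/N211A, against 516, 528, 2234 and 2039 CPM in flox/+. Clusterin Clu had 859, 1972 and 2171 CPM in flox/N211A, against 4537, 2412, 2882 and 4796 CPM in flox/+, with a narrow gap at flox/+ replicate 2. Alveolar type I genes went both ways, with 13 of 19 above 0 and a median of 0.36, which was -0.20 without flox/N211A replicate 1, although Ager, a receptor that marks flat type I cells, had 221, 161 and 72.2 CPM in flox/N211A, against 246, 47.8, 834 and 1062 CPM in flox/+.
Blood cell markers were uneven across libraries in both genotypes. The summed erythroid level was 1001, 2914 and 0.866 CPM in flox/N211A, against 3221, 591, 398 and 47.7 CPM in flox/+. The macrophage list had 12 of 20 members tested, 4 of them above 0, and summed to 417, 551 and 398 CPM in flox/N211A, against 1012, 424, 1687 and 1045 CPM in flox/+. Its defining complement genes C1qa and C1qc were at 0 counts in all 7 libraries, and Lyz1, which type II cells also express, had 318, 381 and 192 CPM in flox/N211A, against 863, 257, 1384 and 507 CPM in flox/+.

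**Figure D4:**
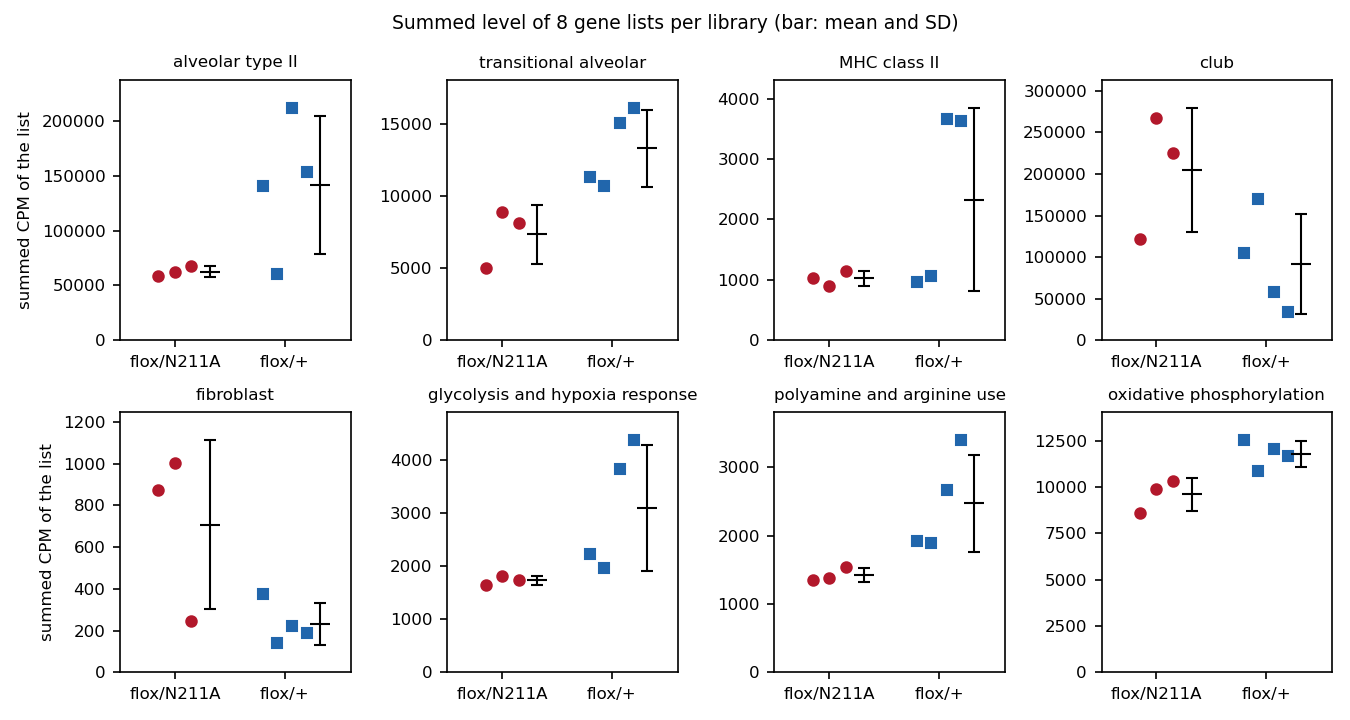
Summed CPM of 8 gene lists in each library, circles for flox/N211A and squares for flox/+, with the mean and SD beside the points. The transitional alveolar, glycolysis, polyamine and oxidative phosphorylation sums are lower in every flox/N211A library than in any flox/+ library, while for MHC class II flox/+ replicates 1 and 2 lie among the flox/N211A libraries.

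Of the 10 urea cycle genes, 7 were tested, 2 lay above 0 and the median was -1.58. Cps1, which forms carbamoyl phosphate, reached 0.0625 CPM in 1 flox/N211A library and was at 0 elsewhere, and Otc, which forms citrulline, was at 0 counts in all 7, so the mitochondrial entry steps were not detectable at this depth. Ass1, which joins citrulline to aspartate, had 18.6, 3.69 and 14.2 CPM in flox/N211A, against 2.96, 2.54, 14.3 and 2.08 CPM in flox/+ (log2 fold change 1.15, SE 1.19, edgeR adjusted p = 1.00). Flox/+ replicate 3 lay among the flox/N211A libraries for this gene. Asl, which splits the product into arginine and fumarate, had 4.51, 4.44 and 15.1 CPM in flox/N211A, against 3.36, 9.88, 76.6 and 50.5 CPM in flox/+ (log2 fold change -2.13, SE 1.01).
The 2 arginases, which release urea from arginine, were the members with an unadjusted p under 0.05. Both were lower, as were 2.66% of all genes at that threshold. Arg2, the mitochondrial form, had 67.4, 27.1 and 67.5 CPM in flox/N211A, against 86.7, 72.9, 223 and 263 CPM in flox/+ (log2 fold change -1.58, SE 0.54, edgeR adjusted p = 1.00), without overlap but with flox/+ replicates 1 and 2 close to flox/N211A. Arg1, the cytosolic form, had 3.68, 0 and 0.866 CPM in flox/N211A, against 20.4, 5.03, 2.66 and 90.1 CPM in flox/+ (log2 fold change -4.29, SE 1.62). Flox/+ replicate 3 lay below flox/N211A replicate 1, and the flox/+ libraries differed widely. Arg1 met the filter on low counts only through flox/+. Nags, the enzyme that makes the activator of Cps1, had 0, 0 and 1.59 CPM in flox/N211A, against 7.44, 2.94, 0 and 0 CPM in flox/+. Of the mitochondrial carriers, Slc25a13 had 43.0, 20.6 and 25.1 CPM in flox/N211A, against 1.6, 38.5, 0.863 and 13.2 CPM in flox/+, and Slc25a15 had 8.20, 1.00 and 3.18 CPM, against 0, 6.89, 25.5 and 0 CPM. Without flox/+ replicates 3 and 4, the list's median was 0.29, and with a filter of 10 CPM in 3 libraries it was -0.20.

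Polyamine and arginine use, which draws on the ornithine that arginase makes, had 15 of 20 tested genes below 0 and a median of -0.55, which was -0.34 without flox/+ replicate 4 and -0.35 without flox/N211A replicate 2. The sum was lower in every flox/N211A library, at 1344, 1382 and 1546 CPM, against 1922, 1886, 2669 and 3393 CPM in flox/+. Sat1, which acetylates spermidine and spermine for export, had 311, 289.8 and 321 CPM in flox/N211A, against 476, 478, 456 and 1091 CPM in flox/+ (log2 fold change -1.03, SE 0.40). The flox/N211A libraries were close together and all 4 flox/+ libraries lay above them. Amd1, which makes the aminopropyl donor of polyamine synthesis, had 26.4, 34.6 and 64.7 CPM in flox/N211A, against 73.1, 119, 65.2 and 101 CPM in flox/+, with flox/N211A replicate 3 at the flox/+ edge. Ornithine decarboxylase Odc1, the entry enzyme, had 22.4, 148 and 88.6 CPM in flox/N211A, against 62.3, 104, 94.7 and 79.6 CPM in flox/+, and its antizyme inhibitor Azin1 had 273, 290.3 and 326 CPM, against 344, 329, 231 and 284 CPM. Neither of these separated the genotypes.

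Glycolysis and hypoxia genes had 20 of 28 tested members below 0, a median of -0.37 and 7 members lower at an unadjusted p under 0.05, as were 2.66% of all genes. The median was -0.14 without flox/+ replicate 4, -0.59 without flox/N211A replicate 2 and -0.10 without flox/+ replicates 3 and 4. Ldha, which turns pyruvate into lactate, had 346, 328 and 469 CPM in flox/N211A, against 543, 550.2, 1168 and 931 CPM in flox/+ (log2 fold change -1.07, SE 0.39). Gapdh, which has many processed copies in the genome and whose reads are therefore uncertain, had 5.07, 7.94 and 9.96 CPM in flox/N211A, against 21.4, 16, 29.3 and 79.5 CPM in flox/+. Both separated the genotypes in all libraries, with flox/+ replicates 3 and 4 the highest.
Oxidative phosphorylation genes, the subunits of the respiratory chain and ATP synthase, lay below 0 for 44 of 52, with a median of -0.26 (-0.42 without flox/N211A replicate 2 and -0.17 without flox/+ replicates 3 and 4), and 8 had non-overlapping libraries, all lower in flox/N211A, as did 2.88% of all genes. The sum was 8625, 9921 and 10330 CPM in flox/N211A, against 12541, 10876, 12037 and 11691 CPM in flox/+. The gap between the genotypes was small and was not tested. Ndufa10, a subunit of complex I, had 27.6, 54.9 and 55.6 CPM in flox/N211A, against 104, 65.7, 193 and 112 CPM in flox/+ (log2 fold change -1.37, SE 0.46). Cytochrome c, Cycs, had 98.5, 136 and 107 CPM in flox/N211A, against 159, 254, 157 and 459 CPM in flox/+ (log2 fold change -1.18, SE 0.43).
Among antioxidant genes, 23 of 37 lay below 0, with a median of -0.20 that was 0.02 without flox/+ replicates 3 and 4. The peroxiredoxin Prdx2, which removes peroxide, had 191, 172 and 186 CPM in flox/N211A, against 338, 325, 296 and 411 CPM in flox/+ (log2 fold change -0.90, SE 0.31), and unlike the glycolytic genes its 4 flox/+ libraries were close to each other. Heme oxygenase Hmox1 had 11.9, 29.1 and 24.7 CPM in flox/N211A, against 42.9, 28.1, 157 and 139 CPM in flox/+.

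Further biosynthetic lists lay mostly below 0. For pyrimidine and purine synthesis 16 of 21 members did, with a median of -0.61 and a sum of 580.3, 703 and 541 CPM in flox/N211A, against 727, 727, 783 and 1034 CPM in flox/+, and no member had an unadjusted p under 0.05. Leaving out flox/N211A replicate 3 gave a median of -1.11, and leaving out flox/+ replicates 3 and 4 gave -0.09. Serine and folate metabolism had a median of -0.41, with 15 of 21 below 0, which was -0.04 without flox/N211A replicate 2, -1.04 without flox/N211A replicate 3 and -0.13 without flox/+ replicate 4. Gcsh, the carrier protein of glycine cleavage, had 14.1, 14.8 and 17.5 CPM in flox/N211A, against 33.5, 32, 67.3 and 70.4 CPM in flox/+ (log2 fold change -1.72, SE 0.53), and its flox/+ libraries all lay above flox/N211A. Of the 69 cytosolic ribosomal protein genes 55 lay below 0, with a median of -0.18, which was 0.14 without flox/+ replicate 1 and -0.51 without flox/+ replicates 3 and 4. Of 36 ribosome biogenesis genes 28 lay below 0, with a median of -0.32. Ribosomal protein genes have many processed copies, so single members are uncertain. Lysosomal genes had 32 of 42 below 0 and a median of -0.28, which was -0.06 without flox/+ replicates 3 and 4. Genes of lipid and sterol synthesis were the exception, with 26 of 41 above 0 and a median of 0.10.

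DNA repair genes, the field of APE1 itself, lay on both sides of 0. Of 25 tested base excision and single-strand break repair genes, 15 lay below 0, with a median of -0.14. The DNA polymerase clamp Pcna had 45.7, 59.9 and 62.0 CPM in flox/N211A, against 76.9, 98.2, 119 and 94.6 CPM in flox/+ (log2 fold change -0.80, SE 0.36). It was the 1 member with an unadjusted p under 0.05, where 2.66% of all genes were lower. Parp1, the sensor of strand breaks, had 11.0, 11.6 and 7.0 CPM in flox/N211A, against 26.1, 14.5, 22.2 and 36.2 CPM in flox/+. Aplf, a ligation factor, had 0, 0 and 1.59 CPM in flox/N211A, against 21.3, 3.33, 14.4 and 3.87 CPM in flox/+. These 3 genes had non-overlapping libraries, all lower in flox/N211A, as did 2.88% of all genes. Aplf met the filter on low counts only through flox/+. The second endonuclease Apex2 had 6.17, 0 and 2.96 CPM in flox/N211A, against 13.0, 6.61, 5.11 and 13.7 CPM in flox/+, and the gap-filling polymerase Polb had 38.0, 1.31 and 26.3 CPM, against 17.3, 26.0, 45.9 and 27.5 CPM.
Double-strand break and crosslink repair genes had 23 of 35 below 0 and a median of -0.38, which was 0.00 with a filter of 10 CPM in 3 libraries and -0.14 without flox/+ replicate 4. Fance, of the Fanconi anemia core complex, had 18.9, 14.7 and 13.4 CPM in flox/N211A, against 1.52, 0.678, 0 and 0 CPM in flox/+ (log2 fold change 4.82, SE 1.76). Its 3 flox/N211A libraries were close together and far above every flox/+ library, and it met the filter on low counts only through flox/N211A. Xrcc4, of end joining, had 16.1, 7.56 and 3.97 CPM in flox/N211A, against 14.6, 39.1, 30.9 and 28.7 CPM in flox/+, overlapping only through flox/+ replicate 1.

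Helicases and binding proteins of G-quadruplexes had 26 of 35 members below 0 and a median of -0.25. Ercc3, a helicase of transcription and nucleotide excision repair, had 1.47, 0 and 7.94 CPM in flox/N211A, against 23.2, 9.71, 63.9 and 14.9 CPM in flox/+ (log2 fold change -3.15, SE 1.39). Ercc3 met the filter on low counts only through flox/+. The abundant members Ddx5 and Cnbp had 1318, 1503 and 915 CPM in flox/N211A, against 957, 1442, 935 and 661 CPM in flox/+, and 248, 377 and 299 CPM in flox/N211A, against 417, 344, 408 and 986 CPM in flox/+. Both overlapped between the genotypes.
Oncogenes known for G-quadruplex promoters were evenly split, 13 of 25 above 0, with a median of 0.04. No member was higher at an unadjusted p under 0.05 and 2 were lower, as were 2.66% of all genes. Tert, also in this list, was among those 2. Myc, which drives growth and ribosome synthesis, had 35.6, 16.6 and 17.6 CPM in flox/N211A, against 18, 28.3, 63.2 and 50.8 CPM in flox/+. The telomerase and shelterin list, with Tert in it, had 12 of 17 below 0 and a median of -0.35, which was -0.14 without flox/+ replicate 4, while its member Ctc1, which guides telomere end replication, had 6.54, 8.56 and 14.4 CPM in flox/N211A, against 3.28, 4.35, 1.73 and 1.04 CPM in flox/+.

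A motif search was made in the promoters, taken from RefSeq on GRCm38.p6 as 250 bases before to 50 bases after each gene's start. The motif was 4 runs of at least 3 G with 1 to 7 bases between runs, on either strand, where overlapping matches were merged. Such a motif was found in 30.4% of the 10399 tested genes with a promoter sequence. It was found in 29 of 106 genes that were higher at an unadjusted p under 0.05 (27.4%, Wilson 95% interval 19.8% to 36.5%) and in 73 of 279 that were lower (26.2%, 21.4% to 31.6%). The median log2 fold change was -0.05 for tested genes with the motif and -0.08 for those without. A motif of this kind is a match of letters and not a measured fold. The promoters of Pgk1 and Ass1, which hold it, and of Tert, which does not, are shown as members of the glycolysis, urea cycle and telomerase lists. Tert is also in the list of oncogenes with G-quadruplex promoters. Asl, Arg1 and Arg2 had no entry in the RefSeq table. Capitals mark the motif, and the promoters lie on the plus strand at chrX:106186850-106187149 (Pgk1), chr2:31470020-31470319 (Ass1) and chr13:73626661-73626960 (Tert).
Pgk1: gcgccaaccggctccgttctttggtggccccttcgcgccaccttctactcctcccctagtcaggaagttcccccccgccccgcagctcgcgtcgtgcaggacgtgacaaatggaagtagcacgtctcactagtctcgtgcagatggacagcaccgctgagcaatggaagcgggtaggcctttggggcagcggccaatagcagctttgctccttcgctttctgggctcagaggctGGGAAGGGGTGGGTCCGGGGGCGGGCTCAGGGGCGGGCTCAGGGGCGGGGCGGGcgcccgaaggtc
Ass1: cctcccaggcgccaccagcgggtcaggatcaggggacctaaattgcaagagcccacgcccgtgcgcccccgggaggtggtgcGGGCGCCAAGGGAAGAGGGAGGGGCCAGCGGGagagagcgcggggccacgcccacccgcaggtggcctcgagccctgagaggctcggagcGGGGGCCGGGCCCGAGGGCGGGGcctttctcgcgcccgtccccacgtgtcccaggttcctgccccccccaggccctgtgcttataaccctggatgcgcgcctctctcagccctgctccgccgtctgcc
Tert: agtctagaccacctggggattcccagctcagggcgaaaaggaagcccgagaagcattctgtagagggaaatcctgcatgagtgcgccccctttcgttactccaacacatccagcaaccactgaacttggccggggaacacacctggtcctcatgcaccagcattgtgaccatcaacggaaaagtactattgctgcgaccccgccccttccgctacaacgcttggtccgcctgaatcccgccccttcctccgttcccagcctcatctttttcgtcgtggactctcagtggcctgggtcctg
In Pgk1 the motif covers 54 bases and in Ass1 55 bases. Pgk1 was lower in flox/N211A in all libraries, and Ass1 overlapped. These promoters were picked as examples, and whether the motif goes with a direction was not tested. The 300 bases of Tert held no match on either strand.

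Antigen presentation and interferon genes did not move as 1 group. MHC class II genes had a median of -1.04, with 7 of 12 below 0, and 5 members lower at an unadjusted p under 0.05, as were 2.66% of all genes. The sum was 1034, 891 and 1142 CPM in flox/N211A, against 960.2, 1067, 3662 and 3625 CPM in flox/+, so that flox/+ replicates 1 and 2 lay at the level of flox/N211A and flox/+ replicates 3 and 4 far above it. Without those 2 libraries the median was 0.42, and without flox/+ replicate 4 alone -0.63. The chains H2-Aa and H2-Eb1 had 403, 339 and 424 CPM in flox/N211A, against 416, 522, 1484 and 1019 CPM in flox/+, and 149, 127 and 139.6 CPM in flox/N211A, against 144, 116, 553 and 585 CPM in flox/+. Their master regulator Ciita had 15.7, 0.563 and 6.78 CPM in flox/N211A, against 5.52, 3.73, 11.8 and 6.06 CPM in flox/+, and did not separate the genotypes.
MHC class I presentation had a median of 0.00, with 10 of 20 members above 0. Its peptide transporter Tap1 had 38.8, 10.9 and 28 CPM in flox/N211A, against 4.32, 5.70, 3.39 and 9.87 CPM in flox/+ (log2 fold change 2.15, SE 0.84), while the shared light chain B2m had 2875, 2223 and 1562 CPM in flox/N211A, against 1004, 1280.1, 2992 and 2651 CPM in flox/+. Of 38 interferon-stimulated genes 18 lay above 0, with a median of -0.05, which was 0.44 with voom and 0.62 with the Xist class as a term. The interferon-induced GTPase Irgm1 had 38.7, 29.1 and 21.0 CPM in flox/N211A, against 8.24, 12.5, 0.730 and 10.7 CPM in flox/+, and its libraries did not overlap. The abundant Ifitm3, which blocks viral entry, had 291, 434 and 503 CPM in flox/N211A, against 235, 621, 774 and 819 CPM in flox/+. Cytosolic nucleic acid sensors had a median of 0.10 over 11 genes.

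The medians of stress, death and growth lists ran from -0.44 for the NF-kB list to -0.02 for the cell cycle list. Targets of p53 had a median of -0.07 over 30 genes. The cell cycle inhibitor Cdkn1a had 208, 477 and 288 CPM in flox/N211A, against 239, 292, 917 and 924 CPM in flox/+, and the p53 inhibitor Mdm2 had 165, 128 and 154 CPM, against 58.6, 157, 134 and 145 CPM, both overlapping. The BCL2 family and caspases had a median of -0.17 over 28 genes, and a sum of 853, 901 and 907 CPM in flox/N211A, against 1228, 1192, 1023 and 1389 CPM in flox/+, without overlap. Bax, which permeabilises the outer mitochondrial membrane, had 7.55, 30.0 and 23.6 CPM in flox/N211A, against 46.5, 21.3, 97.3 and 112 CPM in flox/+. Among the TNF ligands and receptors, with a median of -0.21 over 22 genes, Tnfsf9, the ligand of 4-1BB, had 14.2, 5.13 and 7.65 CPM in flox/N211A, against 16.2, 12.3, 168 and 631 CPM in flox/+. Tnfrsf23, a decoy receptor for TRAIL, had 8.84, 21.8 and 16.4 CPM in flox/N211A, against 74.4, 22.6, 34.5 and 36.8 CPM in flox/+. The 2 differ in pattern: only flox/+ replicates 3 and 4 were high for Tnfsf9, while all 4 flox/+ libraries lay above flox/N211A for Tnfrsf23.
NF-kB pathway genes had a median of -0.44, with 20 of 30 below 0, and of -0.06 without flox/+ replicate 4. At an unadjusted p under 0.05, 2 members were higher and 2 lower, against 1.13% and 2.66% of all genes. The 4 members with an unadjusted p under 0.05 were split, with the chemokine gene Ccl20 at 51.9, 0.50 and 264 CPM in flox/N211A, against 0, 2.48, 23.7 and 5.02 CPM in flox/+, and the cytokine gene Csf2 at 8.93, 4.88 and 6.64 CPM in flox/N211A, against 34.8, 8.58, 1.13 and 209.7 CPM in flox/+. Both varied widely within a genotype.
Immediate early genes had a median of -0.12 over 26 genes, MAPK output genes -0.11 over 25, and the integrated stress response -0.13 over 31. In the EGF receptor family 9 of 13 lay below 0, with a median of -0.28, and its ligand gene Areg had 330.3, 777 and 676 CPM in flox/N211A, against 863, 1055, 616 and 400.3 CPM in flox/+. Of 35 cell cycle genes 17 lay above 0, with a median of -0.02, and cyclin D1, Ccnd1, had 239, 325 and 329.8 CPM in flox/N211A, against 482, 325, 275 and 191 CPM in flox/+. Aminoacyl-tRNA synthetases had a median of -0.11 over 27 genes and DNA methylation genes -0.12 over 16. Medians this close to 0 depended on the scaling: with plain totals those of the immediate early, cell cycle and interferon-stimulated genes were 0.02, 0.18 and 0.06. The model and the libraries used moved some of them further. The cell cycle median was -0.40 with genes detected as a term and 0.44 in Xist-positive libraries only. The interferon-stimulated median was 0.62 with the Xist class as a term.

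Lung lineage and tumor progression genes were evenly split, with 15 of 29 above 0 and a median of 0.07. The inhibitors of differentiation Id1 and Id2, which block basic helix-loop-helix factors, were 2 of the 3 members lower without overlap. Of all genes, 2.88% were lower without overlap. Id1 had 38.8, 27.4 and 46.7 CPM in flox/N211A, against 88.5, 64.1, 134 and 110.4 CPM in flox/+ (log2 fold change -1.40, SE 0.42). Id2 had 159, 187 and 178 CPM in flox/N211A, against 335, 199, 299.9 and 416 CPM in flox/+ (log2 fold change -0.84, SE 0.35). For both, all 4 flox/+ libraries lay above all flox/N211A libraries, narrowly so in flox/+ replicate 2. The epithelial adhesion gene Epcam, the third, had 300.4, 379 and 344 CPM in flox/N211A, against 431, 415, 432 and 543 CPM in flox/+, and the cadherin gene Cdh1 overlapped, with 439.7, 462 and 401 CPM in flox/N211A, against 461, 444, 215 and 353 CPM in flox/+.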

How the data were processed

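RNA was sequenced from lung cells that the labels call premalignant, and the table of all 10 libraries held raw counts per gene as deposited by the authors, whole numbers without normalization. Per the submitters' processing notes, Trim Galore 0.5.0, HISAT2 2.1.0, featureCounts 1.6.4 and DESeq2, with no version, were used with the build mm10. The sources used here do not give which annotation was counted, whether strand was used or how reads with several matches were handled, so values of overlapping genes, antisense genes and pseudogenes are uncertain, and 78 tested genes shared all 7 counts with another gene. GENCODE M21 held 24418 (96.6%) of the gene symbols.

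The 7 libraries were filtered with filterByExpr, scaled by TMM factors and tested two-sided in edgeR 4.0.16 (R 4.3.3) with the quasi-likelihood test, genotype as the only term and Benjamini-Hochberg adjustment at 0.05. The procedure was tested on simulated data. Recovery was required only at a dispersion (spread between replicates in the count model) of 0.05, against 0.98 in these libraries. The simulation therefore does not show that differences in these libraries would be found. CPM values use the TMM-adjusted totals. A chi-square comparison of counts found no replicate pair close enough to be 1 library deposited in duplicate. It does not show that replicates are separate animals. Reads carried no molecular identifiers, so intervals and the floors, set at 3 counts in a library, cover counting error only.

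Named genes were the 12 per direction with the smallest p among those whose libraries did not overlap and whose mean reached 10 CPM in 1 genotype, without clone names, since none passed the adjusted threshold. Results of 2 genes are not reported here. Apex1 and members of the gene lists were described besides. The members and the 48 lists were chosen with earlier results of these data known. Promoters came from RefSeq (GRCm38.p6) and matched 10399 tested genes by symbol.

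Alternatives were DESeq2 1.42.0, voom with quality weights (limma 3.58.1), RLE size factors, plain totals, no filter or a filter of 10 CPM in 3 libraries, all 10 libraries, a replicate block, terms for the Xist class or for genes detected, Xist-positive libraries only, other thresholds, and each library left out. Leaving out flox/+ replicates 3 and 4 together was added after the data were seen.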

Additional observations from a re-analysis of the deposited data

Results flagged for a closer look

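Within the 4 flox/+ libraries, single values that stood far from the other 3 were looked for in 207 genes and in the sums of 48 lists. The limit for such a gap is one that normally distributed values pass by chance in about 1 in 20 groups. CPM values are skewed, so that rate need not hold for them, and no excess over chance can be read from the numbers found. For Col1a2, Slc25a2 and Ramp2 the other 3 libraries had no count, so any count stood apart. Such a gap was found in 22 genes and 4 sums. Of the genes, 9 had the distant value in flox/+ replicate 4, 7 in replicate 1, 5 in replicate 3 and 1 in replicate 2.

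In flox/+ replicate 4 the distant values were 1091 CPM for the polyamine acetyltransferase gene Sat1, 986 CPM for the nucleic acid binding protein gene Cnbp, 543 CPM for the adhesion gene Epcam, 330.2 CPM for the lipid droplet gene Plin2, 209.7 CPM for the cytokine gene Csf2, 169 CPM for the nucleotide synthesis gene Prps1, 24.1 CPM for smooth muscle actin Acta2, 7.80 CPM for the carrier gene Slc25a2 and 0.520 CPM for fibrillin Fbn1. The serine and folate list summed to 772 CPM there.

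In flox/+ replicate 1 they were 1045 CPM for the hemoglobin genes Hba-a1 and Hba-a2, whose values are the same, 178 CPM for Hbb-bt, 279.8 CPM for the purine synthesis gene Paics, 12.2 CPM for Tagln and 0.0800 CPM for Col1a2. The purine salvage gene Hprt stood below the other 3 libraries at 69.6 CPM. The DNA methylation list summed to 722 CPM.

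In flox/+ replicate 3 they were 611 CPM for keratin Krt19, 80.7 CPM for Inmt, 44.7 CPM for the carbonic anhydrase gene Car4, 14.3 CPM for Ass1 and 13.8 CPM for Calca, and the mesothelial list summed to 647 CPM. Krt19 is a member of that list and made up nearly all of the sum, so the 2 are not separate observations. In flox/+ replicate 2 the receptor partner gene Ramp2 had 3.39 CPM and the integrated stress response list summed to 4817 CPM.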

How the results depend on the processing

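EdgeR called 0 genes at an adjusted p under 0.05 and had 497 at an unadjusted p under 0.05. The number called was 13 with DESeq2, which gave no adjusted p for 252 genes, and 33 without a low-count filter (14 higher, 19 lower), and 0 under the other fits and at an adjusted p under 0.1. All 13 genes of DESeq2 had an edgeR p under 0.05. The number at an unadjusted p under 0.05 was 193 with all 10 libraries, 1184 without a filter, 807 with the Xist class as a term, 817 in Xist-positive libraries, 301 with genes detected as a term and 274 to 791 with each library left out, lowest without flox/N211A replicate 1 and highest without flox/+ replicate 2. The replicate block gave 243 and called 0. Same-numbered libraries had correlations of their deviations of 0.00734, -0.0618 and -0.0190, and no flox/N211A library correlated best with its own number. No pairing by number was visible, but so few libraries cannot settle whether the numbers stand for one. The median over all genes was -0.06, and 0.10 with voom and with the replicate block. Apex1 was lower in flox/N211A in all 19 alternatives. Of the values of named genes under alternatives, 437 stayed on their side of the adjusted threshold, 14 passed it and none turned sign. These genes were chosen for non-overlapping libraries, so leaving libraries out could hardly turn a sign, and this lends them no support. Of the list medians, 30 moved beyond the spread between replicates and 787 did not. That spread was each list's own, 0.75 for the interferon-stimulated and 1.14 for the cell cycle list, so uneven lists could hardly move beyond it. Each of these 2 medians kept its sign in 8 of 19 alternatives, while others, such as the club median, kept it in all 19. The number that did not move therefore lends the medians no support. With loops to 12 bases the motif shares were 46.2% for higher and 40.5% for lower genes, against 45.3% of all tested genes. Depth limits genes below 3 counts per library, and the spread between libraries limits the rest.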

Other observations

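Genes with 0 counts in all 4 flox/+ libraries and at least 1 CPM in every flox/N211A library numbered 6, and were looked at after their values were seen. All 6 met the filter on low counts only through flox/N211A. Besides Serpinb1a these included Rhebl1, a small GTPase gene, with 4.51, 10 and 4.40 CPM in flox/N211A, at least 32.3-fold above the floor of flox/+. The neuronal splicing factor gene Nova1 had 5.07, 4.13 and 1.88 CPM in flox/N211A, and the membrane protein gene Slitrk6 had 1.47, 2.75 and 5.48 CPM. The protocadherin gene Pcdhac2 had 4.70, 11.6 and 1.37 CPM in flox/N211A. The reverse pattern held for Tert alone at these limits.

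Among genes that DESeq2 called and edgeR did not, 5 more were lower in flox/N211A, the clone gene 2810006K23Rik, the readthrough gene Eef1akmt4-ece2 and those that follow. Aldh1a3, a retinaldehyde dehydrogenase, had 1.11, 0 and 0 CPM in flox/N211A, against 78.3, 6.04, 1.86 and 8.08 CPM in flox/+. The MHC class I gene H2-Bl had 0.184, 0.0625 and 0 CPM in flox/N211A, against 0.800, 0, 36.0 and 35.6 CPM in flox/+, so that flox/+ replicates 3 and 4 held nearly all of it. The kinase gene Cdk3 had 0, 0 and 0.0722 CPM in flox/N211A, against 0, 7.23, 8.70 and 21.5 CPM in flox/+. Aldh1a3, H2-Bl and Cdk3 met the filter on low counts only through flox/+. So did Eef1akmt4-ece2, which had 0 counts in flox/N211A.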
